A study of Mus musculus with 4 samples.

Results

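The plexins Plxna1, Plxna2, Plxna3, Plxna4, Plxnb1, Plxnb2, Plxnc1 and Plxnd1 and the neuropilins Nrp1 and Nrp2 are the receptor genes described here. They were picked out by symbol, and all 10 were found among the 31053 genes of the deposited matrix. Single-nucleus RNA sequencing had been carried out on the superior colliculus, a midbrain visual and multisensory structure, of C57BL/6J mice, with no genetic change or treatment named. Tissue was taken on embryonic day 19 (E19) or after birth, on day 4 (P4), day 8 (P8) or day 21 (P21). Each age had 1 library made from tissue pooled over several animals, so no stage has a replicate, no test between stages was possible, and stage and library cannot be told apart. By its title, the series asked how diverse the neurons of this structure are and which genes may take part in wiring it.

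Plexins are transmembrane receptors of the semaphorins, a family of secreted and membrane-bound cues that steer growing axons and shape dendrites and synapses. The A-type plexins mostly respond to secreted class 3 semaphorins through a neuropilin that binds the ligand, and to membrane-bound class 6 semaphorins directly, whereas B-type plexins bind class 4 semaphorins, Plxnc1 binds Sema7a and Plxnd1 binds Sema3e. Neuropilins have a short intracellular part and act as ligand-binding partners, with Nrp1 best known for Sema3a and Nrp2 for Sema3f, and both also bind vascular endothelial growth factors. In the visual system, semaphorin signalling is known for its part in the guidance of retinal axons.

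In GENCODE M21 on GRCm38 (mm10), Plxna1 (ENSMUSG00000030084) lies at chr6:89316314-89362620 and Plxna4 (ENSMUSG00000029765) at chr6:32144268-32588192, both on the minus strand. Plxna2 (ENSMUSG00000026640) lies at chr1:194618218-194816869 and Nrp2 (ENSMUSG00000025969) at chr1:62703285-62818695, both on the plus strand. Plxna3 (ENSMUSG00000031398) lies on the X chromosome at chrX:74329066-74344689 on the plus strand. Plxnb1 (ENSMUSG00000053646) lies at chr9:109095389-109119917 and Nrp1 (ENSMUSG00000025810) at chr8:128358604-128503363, both on the plus strand. On the minus strand lie Plxnb2 (ENSMUSG00000036606) at chr15:89155549-89180788, Plxnc1 (ENSMUSG00000074785) at chr10:94790866-94944835 and Plxnd1 (ENSMUSG00000030123) at chr6:115954811-115995005. The spans run from 15.6 kb for Plxna3 to 444 kb for Plxna4, and since intronic reads were counted a longer gene can give more UMIs for the same RNA. Plxna4 contains the antisense genes Plxna4os1, Plxna4os2 and Plxna4os3, counted with 32, 25 and 164 UMIs against 38854 for Plxna4, and the antisense genes at Plxna1 (Gm26811), Plxnb1 (Gm7628) and Nrp2 (Gm29083) had 158, 25 and 12 UMIs. The sources used here do not say whether counting used the strand, and without it reads of a gene and its antisense partner cannot be told apart.

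For 8 of the 10 genes, RefSeq start sites on GRCm38.p6 gave the 250 bases upstream, and Plxna1 and Plxna4 were not matched. All 9 windows (Plxnb2 had 2) contained the GC box GGGCGG on either strand, which was present in 32.7% of 32851 promoter windows of the same length. The CCAAT box, searched as CCAAT on both strands, was in none of them and in 33.8% of all windows. The letters TATAAA were in none and in 12.4% of all windows. The E-box letters CACGTG were in none and in 6.02% of all windows. The windows held 11 to 32 CpG dinucleotides against a median of 6 over all windows. The windows of 3 genes with lower levels at P21 than at E19 in both neuron classes, Plxna3, Plxnb2 and Plxnc1, and of Plxnd1, which neurons hardly expressed, are shown with GC boxes in capitals. A match is a description of the letters and not a binding site.
Plxna3 (chrX:74328816-74329065, plus strand): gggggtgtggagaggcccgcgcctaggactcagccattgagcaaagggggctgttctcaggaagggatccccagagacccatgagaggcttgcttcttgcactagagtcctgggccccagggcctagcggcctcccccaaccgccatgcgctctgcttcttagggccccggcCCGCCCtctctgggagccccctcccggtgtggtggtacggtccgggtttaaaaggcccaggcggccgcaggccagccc
Plxnb2 (chr15:89180789-89181038, minus strand): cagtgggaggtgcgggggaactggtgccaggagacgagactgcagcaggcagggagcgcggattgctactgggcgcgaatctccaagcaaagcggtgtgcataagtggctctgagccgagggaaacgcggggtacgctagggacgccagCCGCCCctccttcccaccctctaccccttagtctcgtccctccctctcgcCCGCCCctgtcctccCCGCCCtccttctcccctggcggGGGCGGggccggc
Plxnc1 (chr10:94944846-94945095, minus strand): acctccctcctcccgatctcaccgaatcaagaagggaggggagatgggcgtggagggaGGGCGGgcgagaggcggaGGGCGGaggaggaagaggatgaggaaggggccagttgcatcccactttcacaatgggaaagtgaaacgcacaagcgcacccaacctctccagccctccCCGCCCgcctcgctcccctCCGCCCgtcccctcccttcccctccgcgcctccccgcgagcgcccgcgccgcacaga
Plxnd1 (chr6:115995006-115995255, minus strand): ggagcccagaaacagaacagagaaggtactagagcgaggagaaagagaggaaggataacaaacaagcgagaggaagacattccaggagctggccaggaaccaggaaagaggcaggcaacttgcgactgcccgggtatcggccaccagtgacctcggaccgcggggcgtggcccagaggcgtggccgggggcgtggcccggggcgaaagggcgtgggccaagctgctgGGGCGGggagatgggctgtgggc
In the windows shown, Plxnb2 and Plxnc1 had 4 boxes each and Plxna3 and Plxnd1 had 1 each. Of the windows not shown, Nrp1 had 1 box, Plxna2 had 2, the other Plxnb2 window 3, Plxnb1 4 and Nrp2 5. A relation between the count of boxes and the level in neurons was not tested.

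The libraries held 2249 to 2585 nuclei with median depths of 6828 (E19), 9044.5 (P4), 9672 (P8) and 11745 (P21) unique molecular identifiers (UMIs) per nucleus. Levels are CPM, the UMIs of a gene per 1000000 UMIs, summed over the nuclei of a deposited class or subtype in 1 library, given for groups with 20 or more nuclei. Intervals are exact 95% intervals that cover counting error only, and a ratio is called beyond its interval where that interval does not hold 1. Where a limit is given for a count of 0, it is that of 3 counts, which is lower than the upper end of the exact interval. The share of nuclei with an Xist UMI was 0.967%, 46.0%, 40.7% and 68.1% at E19, P4, P8 and P21, and the part of sex in any stage difference, including that of X-linked Plxna3, was not tested. The libraries shared 9 barcode sequences (18 nuclei). Summed marker levels were highest in the class so labelled, in every library with 20 or more of its nuclei, for neurons, inhibitory neurons, the oligodendrocyte lineage, microglia, vascular leptomeningeal cells (VLMC) and dividing cells. The 6 astrocyte markers were higher in VLMC than in astrocytes at E19 and P4, with 2 of the 6 at 0 in VLMC at E19. The 4 excitatory markers summed to 809 to 1173 CPM in excitatory neurons and were exceeded by microglia at P21 (1287 CPM) and by the class labelled endothelial at P4 (2920 CPM), with 2 of the 4 at 0 in each of these. The class labelled epithelial went against its label, since the 5 ependymal and choroid plexus markers together reached 7.28 to 14.4 CPM there. VLMC markers reached 792 to 866 CPM in it, astrocyte markers 728 to 845 CPM and neuron markers 1066 to 1727 CPM. Each of these sums was lower than in the class so named, for example 2387 to 6979 CPM of VLMC markers in VLMC. The class labelled endothelial held endothelial markers at 5666 CPM and pericyte markers at 2187 CPM at P4, so that both cell types were represented.

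Most plexins and Nrp1 were lower at P21 than at E19 in both neuron classes, and none was more than 2-fold higher. In excitatory neurons, 6 of the 9 members that reached 20 CPM in the higher stage were at least 2-fold lower at P21 (Plxna1, Plxna3, Plxnb1, Plxnb2, Plxnc1 and Nrp1), where 13.3% of 7650 genes were. In inhibitory neurons, 5 of 9 were (the same genes without Plxnb2), where 13.6% of 7807 genes were. No member was 2-fold higher, against 6.51% and 7.26% of all genes. The median member was 2.45-fold lower in excitatory and 2.13-fold lower in inhibitory neurons, while the median of all genes was 1.05-fold and 1.03-fold lower. Plxnb1 reached 20 CPM only at E19 in excitatory neurons, and Plxnd1 reached it at no stage in either class. Just outside the 2-fold limit was Plxnb2 in inhibitory neurons (1.98-fold) and just inside was Nrp1 (2.12-fold and 2.13-fold). With size factors from the median ratio over genes, every E19 to P21 change moved up by 0.11 (excitatory) or 0.12 (inhibitory) on the log2 scale, Nrp1 no longer passed, and the counts were 5 and 4. With 20 CPM added to both values, which shrinks low genes, the counts were 2 and 2, against 5.41% and 5.92% of all genes.

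From P8 to P21 alone, Plxna3 and Nrp1 were at least 2-fold lower in both classes. Of the 8 members that reached 20 CPM, 3 were 2-fold lower in excitatory neurons (Plxna3, Plxnc1 and Nrp1) against 4.3% of all genes, and 2 of 8 in inhibitory neurons against 4.74%. None was 2-fold higher, against 3.11% and 3.63%. With 20 CPM added, 0 of 8 members were 2-fold lower in inhibitory neurons, against 1.21% of all genes. The P21 library also had the lowest median share of mitochondrial UMIs (0.232% against 0.635% at E19), and the part of this in the results was not tested.

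**Figure D1:**
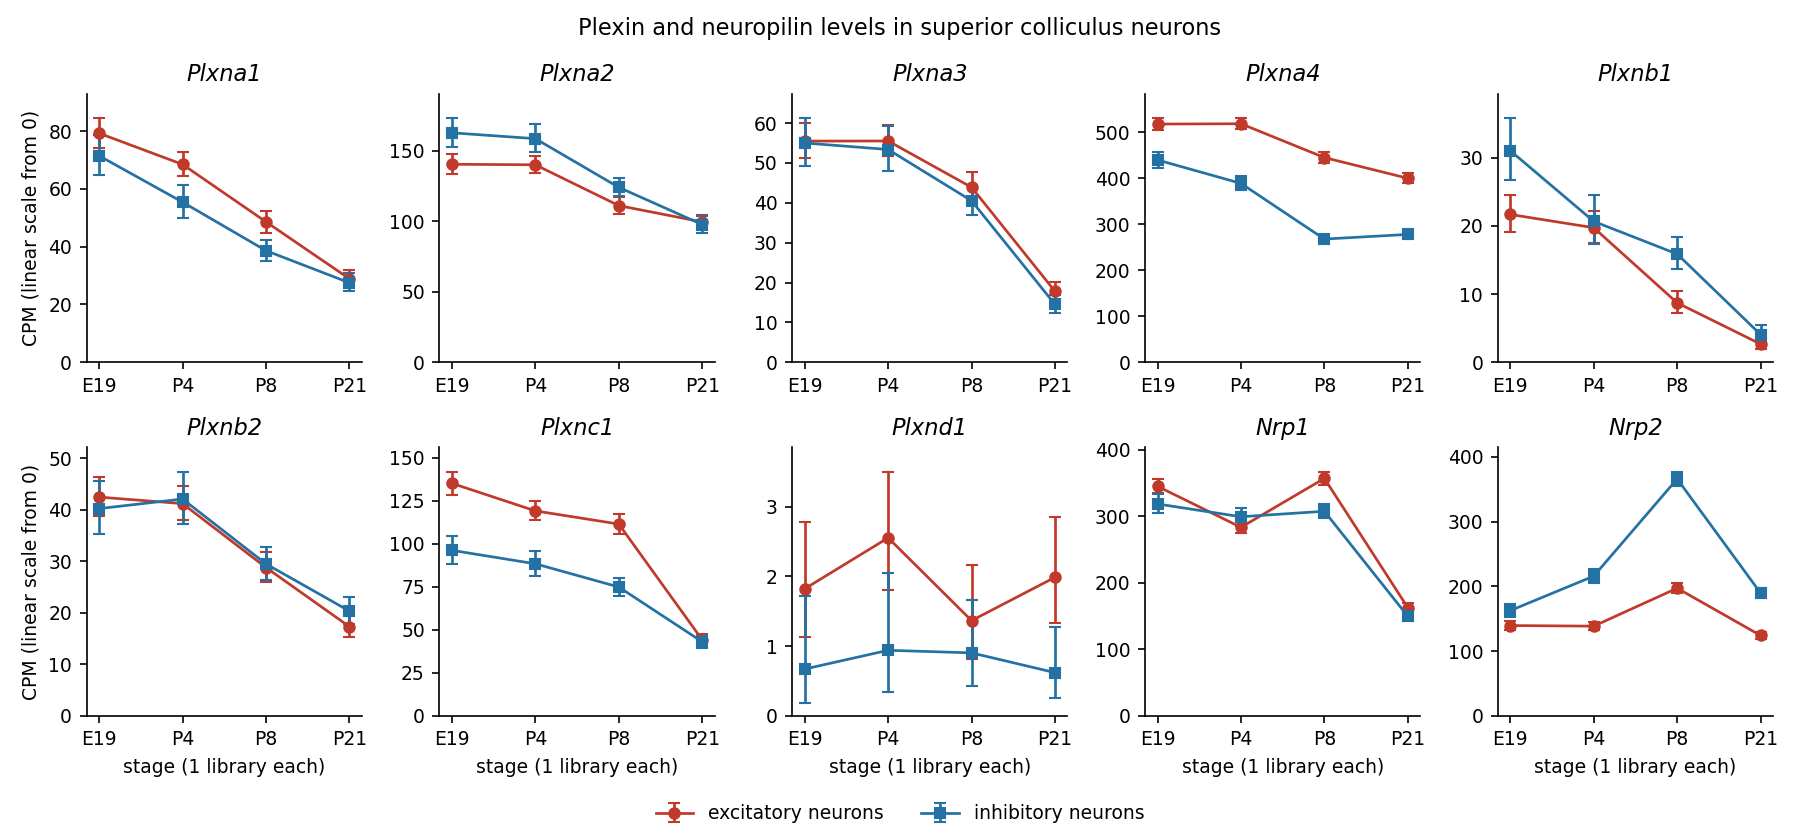
Level of each plexin and neuropilin in CPM (linear axis from 0) against stage in excitatory neurons (red circles) and inhibitory neurons (blue squares), 1 library per point, with exact 95% Poisson intervals for counting error. Plxna1, Plxna3, Plxnb1, Plxnb2 and Plxnc1 are lowest at P21 in both classes, Nrp2 peaks at P8, and Plxnd1 stays under 3 CPM.

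Plxna1, an A-type plexin that pairs with either neuropilin, stepped down at every stage. In excitatory neurons it measured 79.3, 68.5, 48.6 and 28.9 CPM at E19, P4, P8 and P21, a 2.74-fold lower level at P21 (2.44 to 3.09). In inhibitory neurons it measured 71.5, 55.4, 38.6 and 27.5 CPM, 2.60-fold lower (2.24 to 3.02). The 2 classes were within counting error of each other at E19 and at P21, and excitatory neurons were higher at P4 (1.24-fold) and P8 (1.26-fold).

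Plxna2, a receptor of class 6 semaphorins as well as a neuropilin partner, changed less. Its levels were 141, 140.2, 111 and 99.6 CPM in excitatory neurons, 1.41-fold lower at P21 (1.31 to 1.52). They were 163, 159, 124 and 97.8 CPM in inhibitory neurons, 1.67-fold lower (1.53 to 1.82). Inhibitory neurons were the higher class by 1.12-fold to 1.16-fold at E19, P4 and P8, and the classes did not differ beyond the interval at P21. With nuclei thinned to 2300 UMIs the side at P4 turned, with an excitatory over inhibitory ratio of 1.03.

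Plxna3, the partner of Nrp2 in Sema3f signalling, stayed level through P4 and was much lower at P21. It measured 55.5, 55.5, 43.9 and 17.8 CPM in excitatory neurons and 55.0, 53.4, 40.5 and 14.5 CPM in inhibitory neurons. From P8 to P21 the level was 2.47-fold lower in excitatory neurons (2.13 to 2.87) and 2.79-fold lower in inhibitory neurons (2.33 to 3.36). Over the whole span the folds were 3.12 (2.70 to 3.62) and 3.79 (3.13 to 4.60).

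Plxna4, which binds class 6 semaphorins and serves Sema3a signalling with Nrp1, had the most UMIs of the plexins in neurons and kept most of its level. In excitatory neurons it measured 518, 519, 445 and 400.3 CPM, 1.29-fold lower at P21 (1.25 to 1.34). In inhibitory neurons it measured 440.2, 389, 268 and 278 CPM, 1.58-fold lower (1.502 to 1.67), with P8 and P21 within the interval of each other. Both directions turned when each subtype was weighted alike, which gave P21 to E19 ratios of 1.04 in excitatory and 1.03 in inhibitory neurons. Among the UMIs of the A-type plexins, Plxna4 accounted for 65.3% at E19 and 73.2% at P21 in excitatory neurons and for 60.3% and 66.6% in inhibitory neurons. A share of UMIs between genes depends on their lengths as well as on their RNA.

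Of the B-type plexins, Plxnb1, a receptor of Sema4d, showed the steepest difference of all members. It measured 21.7, 19.7, 8.72 and 2.67 CPM in excitatory neurons (250 UMIs at E19 and 39 at P21) and 31.0, 20.7, 15.9 and 4.07 CPM in inhibitory neurons. The P21 level was 8.12-fold lower (5.78 to 11.7) and 7.63-fold lower (5.49 to 10.8). Plxnb2, which responds to Sema4 ligands in neural progenitors and immature neurons, measured 42.5, 41.2, 28.8 and 17.3 CPM in excitatory and 40.3, 42.1, 29.5 and 20.3 CPM in inhibitory neurons. It was 2.45-fold lower (2.10 to 2.87) and 1.98-fold lower (1.64 to 2.38), and the classes were within counting error of each other in all 4 libraries.

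Plxnc1, the Sema7a receptor, measured 135, 119, 111 and 44.2 CPM in excitatory neurons and 96.1, 88.3, 74.8 and 43.0 CPM in inhibitory neurons. It was 3.06-fold lower at P21 than at E19 in excitatory neurons (2.79 to 3.36) and 2.24-fold lower in inhibitory neurons (1.98 to 2.53). In excitatory neurons it was 2.52-fold lower at P21 than at P8 (2.30 to 2.77). The excess of excitatory over inhibitory neurons, 1.35-fold to 1.49-fold at E19, P4 and P8, was within counting error at P21 (1.03-fold, 0.912 to 1.16).

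Plxnd1, the Sema3e receptor best known from blood vessels, was close to absent from neurons. Pooled over the libraries it had 106 UMIs in 4093 excitatory nuclei (1.95 CPM, 1.60 to 2.36) and 27 UMIs in 3459 inhibitory nuclei (0.777 CPM, 0.512 to 1.13).

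In the class totals, the neuropilins followed 2 different courses. Nrp1 measured 345, 283, 357 and 163 CPM in excitatory and 318, 299, 307 and 149.6 CPM in inhibitory neurons, so that the first 3 stages were high and P21 was low in both classes. From P8 to P21 it was 2.19-fold lower (2.09 to 2.31) and 2.05-fold lower (1.94 to 2.18). Nrp2 measured 139, 139, 197 and 124 CPM in excitatory and 163, 216, 366 and 189.7 CPM in inhibitory neurons, highest at P8 in both. From P4 to P8 it was 1.42-fold higher (1.34 to 1.51) and 1.70-fold higher (1.59 to 1.80), and from P8 to P21 it was 1.59-fold lower (1.49 to 1.69) and 1.93-fold lower (1.83 to 2.03). With each subtype weighted alike, Nrp2 at P8 was 0.892 times its P4 level in excitatory neurons, the opposite direction. Within subtypes the neuropilins differed less over this step. Nrp1 and Nrp2 were each lower at P8 than at P4 in 10 of 23 subtypes and higher in 13, with median ratios of 1.036 and 1.041. In the inhibitory subtypes, Nrp2 was higher at P8 in 8 of 12 (3 beyond the interval), with a median ratio of 1.16. Between E19 and P21 it was 1.12-fold lower in excitatory neurons and 1.17-fold higher in inhibitory neurons, and both directions depended on how nuclei were weighted. With nuclei thinned to 2300 UMIs, the P21 to E19 ratio in excitatory neurons was 1.04, and with each subtype weighted alike the ratio in inhibitory neurons was 0.729. Nrp2 took a growing share of the neuropilin UMIs, from 28.8% to 43.3% in excitatory and from 33.8% to 55.9% in inhibitory neurons.

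Comparing the classes within a library, 2 members were on the same side beyond the interval in all 4 libraries. Plxna4 was higher in excitatory neurons by 1.18-fold, 1.33-fold, 1.66-fold and 1.44-fold at E19, P4, P8 and P21, and Nrp2 was higher in inhibitory neurons by 1.17-fold, 1.56-fold, 1.86-fold and 1.53-fold. Nrp1 was the higher in excitatory neurons at E19, P8 and P21 by 1.08-fold to 1.16-fold and lower at P4, and its side at P4 turned without the subtype EN7 (1.14-fold higher in excitatory neurons). The classes had been defined by clustering that could use these genes, so their differences are a description.

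The deposited neuron subtypes were then compared one by one. Of 23 subtypes with 20 or more nuclei at both E19 and P21, Plxna1 and Plxna3 were lower at P21 in 23 each (19 beyond the interval for each). Plxnb1 was lower in 22 (17 beyond the interval), and Plxnb2, Plxnc1 and Nrp1 were lower in 21 each (11, 19 and 18 beyond it). For these 4 genes in turn, the median subtype was 8.06-fold, 2.23-fold, 3.09-fold and 2.06-fold lower. The Plxnb1 median leaves out the subtypes with no UMIs of it at a stage. Nrp1 was lower at P21 than at P8 in 22 of 23, all 22 beyond the interval. The exceptions for Nrp1 between E19 and P21 were EN10 and IN7, both within counting error. Plxna2 was lower in 15 of 23, of which 6 lay beyond the interval.

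Plxna4 in both classes and Nrp2 in inhibitory neurons did not follow their class totals within subtypes. Plxna4 was lower at P21 in 9 subtypes and higher in 14, with 5 and 8 beyond the interval, and its median subtype ratio was 1.07, although both class totals were lower. Over all nuclei, the P21 to E19 ratio of Plxna4 was 0.772 in excitatory and 0.632 in inhibitory neurons. Nrp2 was lower in 18 subtypes and higher in 5, with a median of 1.302-fold lower. It was lower in 8 of 11 excitatory subtypes, as was the excitatory total, and in 10 of 12 inhibitory subtypes, although the inhibitory total was higher. The makeup of the classes differed between the libraries, which held 1338 excitatory and 893 inhibitory nuclei at E19 and 682 and 740 at P21. EN1 and IN1, both high in Plxna4, held 514 and 266 nuclei at E19 and 138 and 70 at P21. EN8 and IN6, also high in Plxna4, held 49 and 54 nuclei at E19 and 46 and 51 at P21, larger shares of their classes. IN3 and IN7, both high in Nrp2, held 67 and 30 nuclei at E19 and 126 and 64 at P21. Whether these differences in makeup came from the tissue or from sampling of nuclei was not tested, nor was their part in the class totals.

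**Figure D2:**
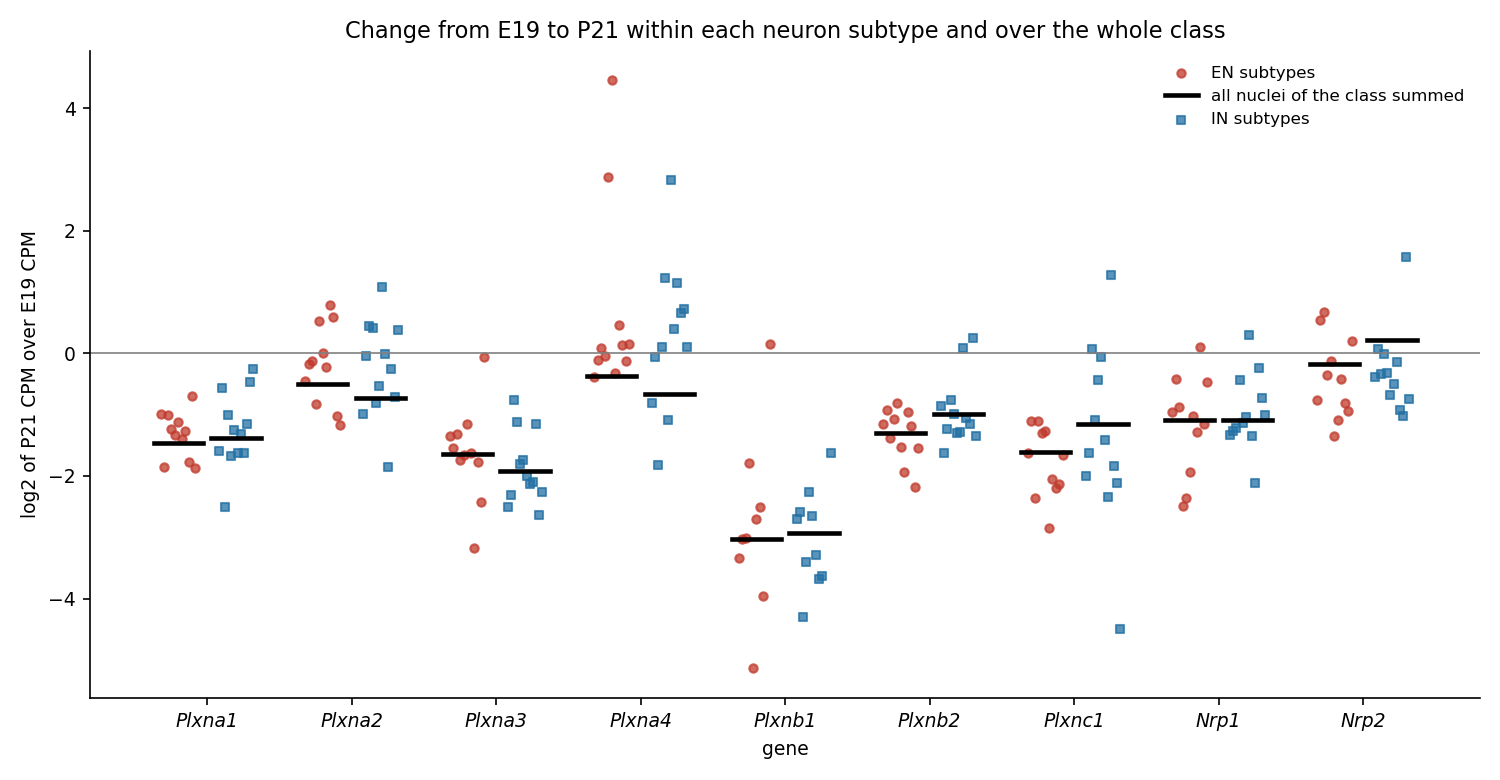
Change from E19 to P21 as log2 of the P21 CPM over the E19 CPM (vertical axis) for 9 genes (horizontal axis) in excitatory (red circles) and inhibitory (blue squares) subtypes, with the sum over all nuclei of the class as a black bar. Subtypes with 0 UMIs at a stage (4, all for Plxnb1) and Plxnd1 are not drawn; most points lie below 0, whereas for Plxna4 14 of 23 lie above it while both bars lie below.

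The largest Plxna4 ratios were in subtypes that had little of it at E19. EN6 had 2 UMIs in 30 nuclei at E19 and measured 9.91, 75.3, 108 and 217 CPM over the 4 stages, a P21 to E19 ratio of 21.9 (6.00 to 182). EN5 measured 27.9, 116, 149 and 205 CPM, 7.38-fold higher at P21 (3.68 to 17.3). IN7 measured 46.8, 113, 194 and 333 CPM, 7.11-fold higher (3.69 to 15.7), and IN5 measured 152, 173, 242 and 357 CPM, 2.35-fold higher (1.77 to 3.19). In each of these 4 subtypes every later library was above the earlier one.

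IN3 went the other way, with 72.8, 44.2, 34.0 and 20.6 CPM of Plxna4, 3.54-fold lower at P21, and was the lowest of all neuron subtypes from P4 on. The subtype with the most Plxna4 in all 4 libraries was EN8, at 999, 842, 925 and 796 CPM. IN6 was second at E19 with 872 CPM and measured 411 CPM at P21. The highest subtype was 101, 19.1, 27.2 and 38.7 times the lowest at E19, P4, P8 and P21. The lowest at E19 was EN6 at 9.91 CPM, on the few UMIs given above, so the E19 range is uncertain. The median subtype measured 293, 352, 368 and 366 CPM.

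Among the A-type plexin UMIs of EN6, Plxna4 made up 6.25%, 25.0%, 41.3% and 69.0% at the 4 stages, and in IN7 20.9%, 37.5%, 58.5% and 73.6%. In IN3 the share was 42.3%, 24.6%, 26.1% and 23.3%. After thinning to 2300 UMIs, the share of EN6 nuclei with a Plxna4 UMI was 0%, 14.6%, 23.8% and 29.7% (6.67%, 31.7%, 52.5% and 68.8% before thinning). The 0 of 30 at E19 allows up to 10.0% at 3 counts and 11.6% by the exact interval. Myelinating oligodendrocytes, taken as the group that should lack the gene, had a share of 3.21% at P21 after thinning and 6.95% before it, with a median depth of 7860 UMIs against 15852.5 in EN6.

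**Figure D3:**
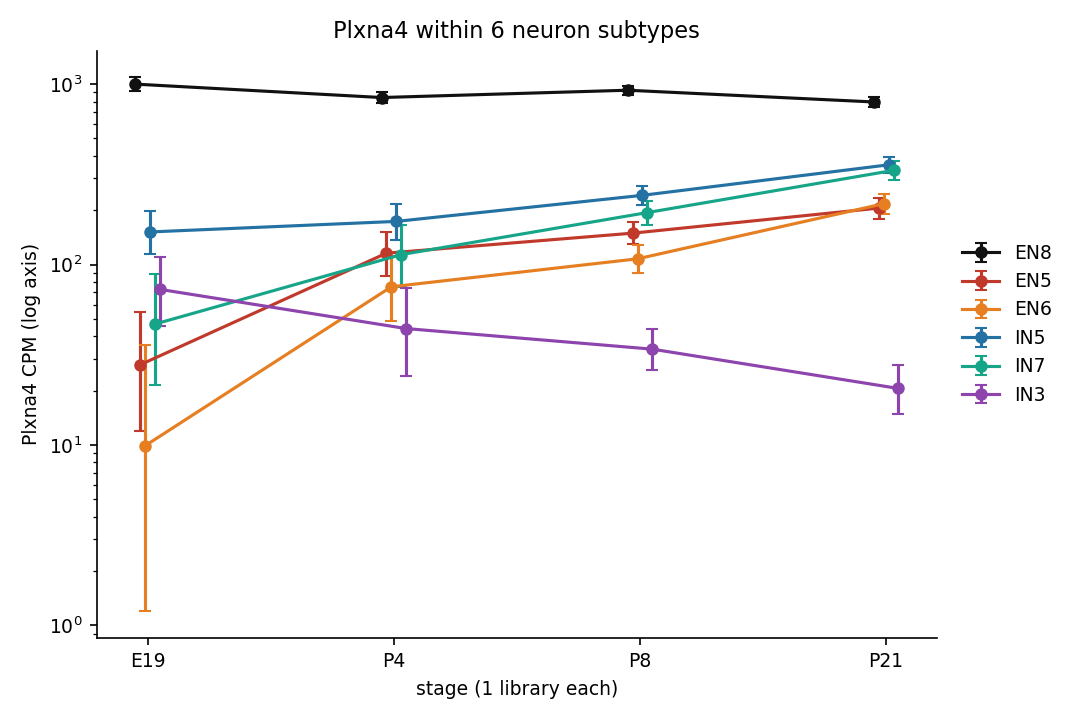
Plxna4 in CPM (log axis) against stage in 6 neuron subtypes, 1 library per point, with exact 95% Poisson intervals for counting error. EN8 stays between 796 and 999 CPM, EN5, EN6, IN5 and IN7 step up at each stage, and IN3 steps down to 20.6 CPM.

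Nrp2 was concentrated in EN6 and IN7, which were among the 3 highest subtypes in all 4 libraries. EN6 measured 991, 618, 659 and 389 CPM and IN7 551, 635, 747 and 388 CPM, and IN3 (463, 546, 721 and 367 CPM) was in the top 3 in 3 libraries. EN10 was among them once, at P4. In EN6 and IN7, Nrp2 supplied 82.6% and 83.5% of the neuropilin UMIs at E19 and 87.7% and 74.2% at P21, whereas in EN3 it supplied 9.05% and 22.4%. EN8, the subtype with the most Plxna4, had 109.8, 86.7, 79.9 and 51.5 CPM of Nrp2.

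Across subtypes, levels of Plxna4 and Nrp2 on the log2 scale with 5 CPM added ran in opposite directions, with Pearson r of -0.64, -0.66, -0.67 and -0.60 (Spearman rho -0.63, -0.67, -0.66 and -0.75) over 25, 25, 23 and 23 subtypes at the 4 stages. Of all pairs of members, Plxna4 and Nrp2 had the largest absolute Pearson r at E19, P4 and P8. Plxna2 and Plxna4 ran in the same direction, with Pearson r of 0.51, 0.58, 0.50 and 0.63, the largest of all pairs at P21. The points of a stage share 1 library and differ in depth, so these values are descriptive.

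Nrp1 had other leading subtypes. EN9 was in the top 3 in all 4 libraries (603, 693, 527 and 247 CPM) and EN3 in 3 of them. EN5 was highest at E19 with 839 CPM and measured 163 CPM at P21, 5.15-fold lower, and EN4 went from 541 to 95.9 CPM. IN11 was among the 3 lowest in all 4 libraries (54.6 CPM at E19 and 33.0 at P21). EN7, which had 20 or more nuclei only at E19 and P4, was the lowest subtype in both neuropilins there, with 28.9 and 32.8 CPM of Nrp1 and 25.7 and 26.3 CPM of Nrp2.

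**Figure D4:**
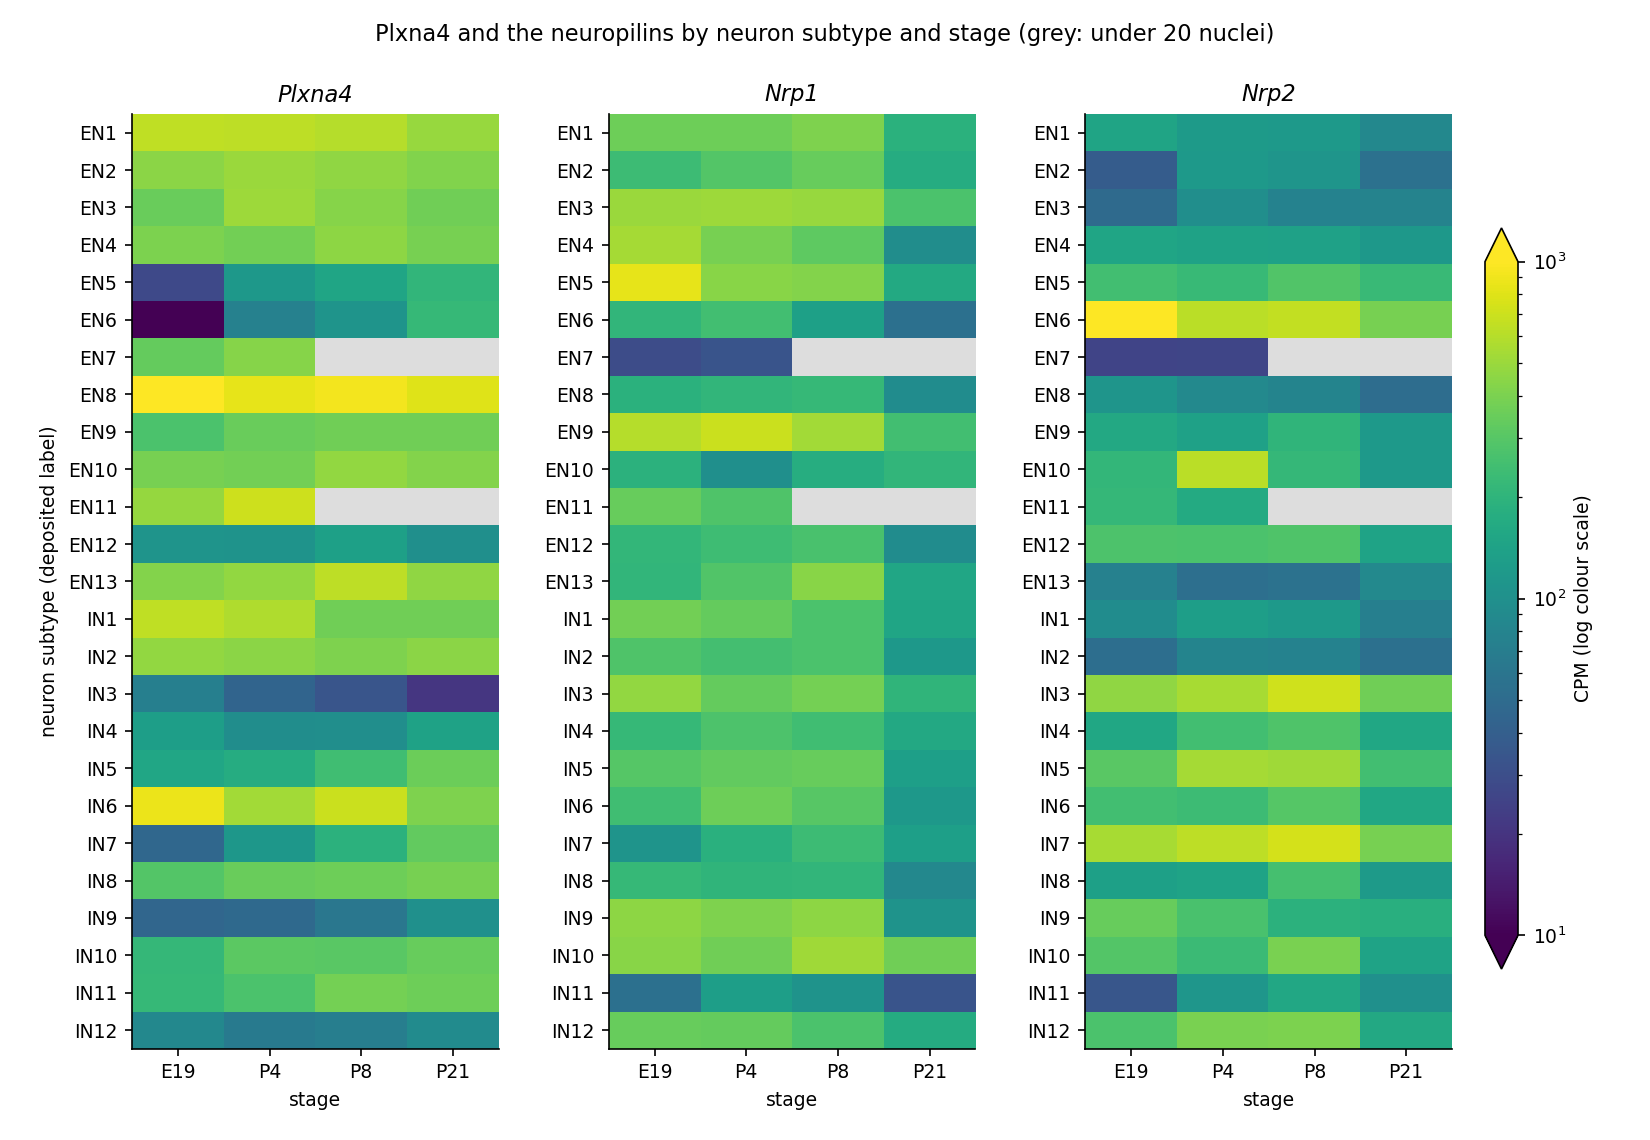
Level in CPM (log colour scale) of Plxna4, Nrp1 and Nrp2 in each neuron subtype (rows) at each stage (columns, 1 library each); grey marks subtypes under 20 nuclei. EN6, IN3 and IN7 are bright for Nrp2 and dark for Plxna4 at E19, EN8 is brightest for Plxna4 at every stage, and most Nrp1 rows are darkest at P21.

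The other members had their own subtype patterns. Plxnc1 was highest in EN13 in all 4 libraries (278, 238, 174 and 88.7 CPM). IN12 went from 188 CPM of Plxnc1 at E19 to 8.33 CPM at P21 (22 and 2 UMIs), while IN3 was level at 72.8 and 76.3 CPM. Plxnb2 was lowest in EN9 in every library (7.08 to 19.1 CPM) and highest in IN3 at E19 and P21. Plxnb1 was highest in IN3 at E19, P4 and P8 (59.6, 50.5 and 27.7 CPM). Plxna1 was lowest in IN3 at E19, P8 and P21. Plxna3 was the most even member at P8, with 28.5 CPM in IN1 and 52.3 CPM in EN12, a 1.84-fold range. Plxna2 differed 8.06-fold to 13.96-fold between its highest and lowest subtypes, with EN12 or IN12 lowest at each stage.

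Outside the neurons, Plxnb1 was highest in astrocytes. It measured 127, 156, 111 and 129.8 CPM in astrocytes, with a P21 to E19 ratio of 1.02 (0.809 to 1.29), and every astrocyte library was above every library of every other class. Protoplasmic and fibrous astrocytes measured 132 and 119 CPM at P21. The level in excitatory neurons at P21 was 2.67 CPM. The dividing cells held 56.4 to 77.0 CPM and myelinating oligodendrocytes 60.0 CPM at P21.

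Most other receptors were lower in astrocytes at P21 than at E19. Plxna3 measured 42.1, 42.6, 25.0 and 3.08 CPM, 13.7-fold lower from E19 to P21 (5.39 to 44.5, on 39 and 5 UMIs). Plxnc1 measured 135, 59.4, 49.99 and 29.5 CPM, 4.57-fold lower (3.25 to 6.52), and Plxna2 258, 149.5, 152 and 63.3 CPM, 4.07-fold lower (3.22 to 5.18). Plxna1, Plxnb2, Plxna4 and Nrp1 were 2.68-fold, 1.92-fold, 1.72-fold and 1.67-fold lower, all beyond the interval. Nrp2 was within it (24.8 and 38.7 CPM). In fibrous astrocytes Nrp1 was 3.41-fold lower (331 to 97.0 CPM) and Nrp2 2.76-fold higher (36.7 to 101 CPM), and in protoplasmic astrocytes Nrp1 was 1.58-fold lower (393 to 248 CPM).

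In the oligodendrocyte lineage the class totals mixed precursors and mature cells, with precursors making up 42 of 54 nuclei at P4 and 64 of 306 at P21. Within precursors (OPC), Plxna4 was level at 184, 178, 236 and 187 CPM, Plxna2 was 2.57-fold lower at P21 than at E19 (257 and 100.2 CPM, 1.60 to 4.19), and Nrp2 was 3.56-fold higher (26.2 and 93.5 CPM, 1.36 to 11.8). Myelinating oligodendrocytes at P21 had 9.57 CPM of Plxna4, 4.47 CPM of Plxna2, 8.29 CPM of Nrp1 and 0 UMIs of Plxnd1. Committed oligodendrocytes had 0 UMIs of Plxnc1 at P8 and P21 (33 and 55 nuclei), while precursors had 76.1 and 66.8 CPM.

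Microglia had the highest Nrp1 level of the classes in each of their 3 libraries, at 1392 CPM at P4, 1014 at P8 and 567 at P21, on 101, 77 and 63 UMIs in 21 to 33 nuclei. At P21 the interval (436 to 726) overlapped that of the class labelled epithelial (379 to 542). They also had 496, 342 and 459 CPM of Plxna4, near the level of excitatory neurons, and 124, 105 and 90.03 CPM of Plxnb2, with 8 to 10 UMIs in each library. Plxna3 had 0 UMIs in the microglia of all 3 libraries, which allows up to 41.3 CPM at P4 at 3 counts and 50.8 CPM by the exact interval. Neuron markers summed to 1323 to 3529 CPM in microglia against 12054 to 20338 in the neuron classes, and the part of neuronal RNA in the Plxna4 level was not tested. Nrp1 in microglia was above both neuron classes in every library.

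Plxna2 had its highest class levels in VLMC and in the class labelled epithelial. VLMC measured 277, 259.9, 461 and 680.1 CPM, 2.62-fold higher at P21 than at P4 (2.16 to 3.19), and the class labelled epithelial measured 359.9 CPM at P8 and 626 CPM at P21. In VLMC Plxna4 was 3.13-fold higher at P21 (46.7 and 146 CPM, 1.999 to 5.10) and Plxnc1 3.07-fold lower (238 and 77.4 CPM, 2.27 to 4.18). The markers summed in VLMC moved over the same stages. From P4 to P21 the 6 VLMC markers went from 4246 to 2387 CPM, the 6 astrocyte markers from 2774 to 1479 CPM and the 6 oligodendrocyte lineage markers from 52.8 to 610.4 CPM. Their part in the receptor differences was not tested. Plxnd1 measured 175 CPM (125 to 238) in the class labelled endothelial at P4, the one library with 20 or more such nuclei. Pooled over the libraries the 62 nuclei of that class had 134 UMIs of Plxnd1 (220.4 CPM, 185 to 261), and the dividing cells had 0 in 106 nuclei, which allows up to 4.74 CPM at 3 counts and 5.83 CPM by the exact interval.

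**Figure D5:**
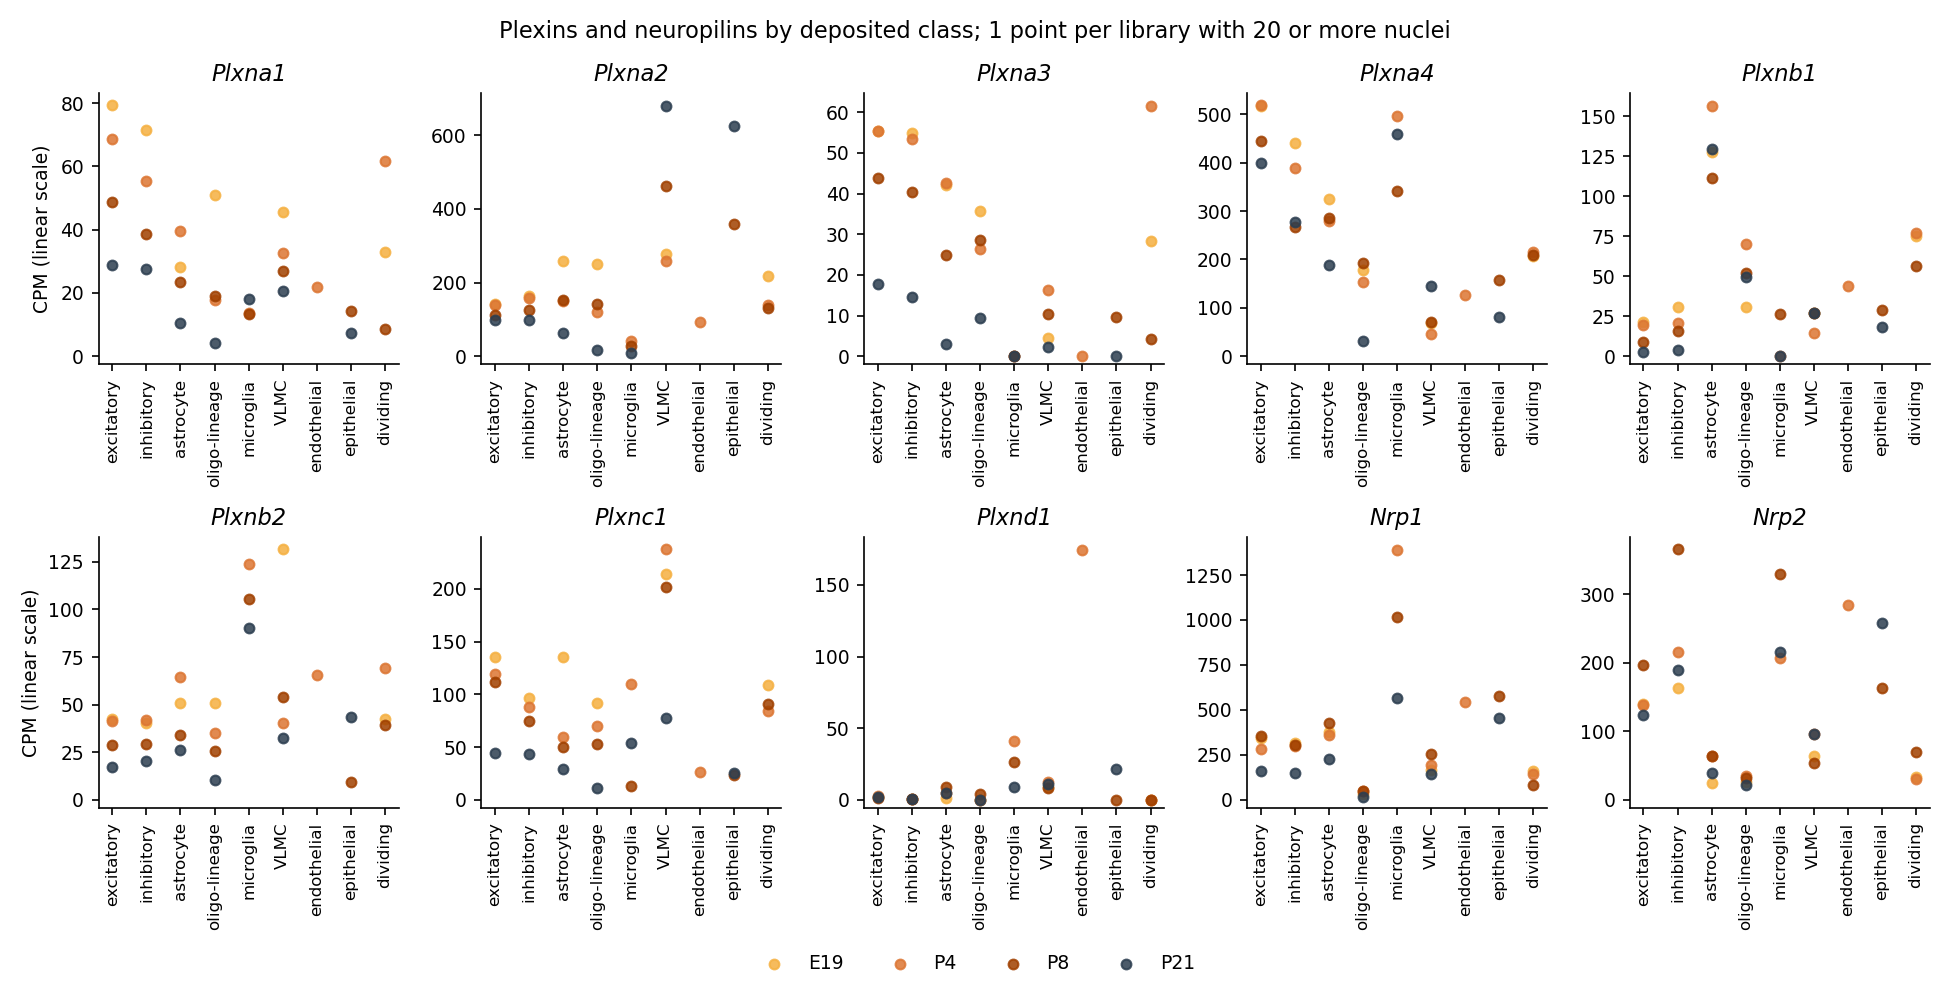
Level in CPM (linear axes) of each gene in each deposited class, 1 point per library with 20 or more nuclei, coloured by stage; VLMC are vascular leptomeningeal cells. Plxnb1 is highest in astrocytes, Nrp1 in microglia, Plxnd1 in the class labelled endothelial (1 library) and Plxna2 in VLMC and in the class labelled epithelial at P21.

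Compared between genes per kilobase of gene span, a scale on which long introns count less, Plxna3 was first in excitatory neurons at E19 at 3.55 CPM per kb, followed by Nrp1 at 2.38. Plxna3 also has the shortest span (15.6 kb). Whether UMIs rise in proportion to span was not tested, so the order on this scale need not be that of the RNA. Plxna1 (1.71) and Plxnb2 (1.68) did not differ beyond their intervals, nor did Nrp2 (1.21) and Plxna4 (1.17), nor Plxnb1 (0.884) and Plxnc1 (0.877). Plxna2 (0.708) and Plxnd1 (0.0453) came last. At P21 the first 3, Plxna3, Nrp1 and Nrp2, lay between 1.08 and 1.14 CPM per kb. In inhibitory neurons Nrp2 was first at P8 (3.17 CPM per kb) and P21 (1.64). In astrocytes Plxnb1 was first in all 4 libraries, at 4.54 to 6.38 CPM per kb.

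Detection within single nuclei was compared after thinning each nucleus to 2300 UMIs, below which no nucleus fell. Inhibitory nuclei with an Nrp2 UMI had an A-type plexin UMI in 53.7%, 56.5%, 42.5% and 43.4% at the 4 stages, and those without Nrp2 in 66.8%, 68.4%, 64.3% and 55.8%, with no overlap of the exact binomial intervals at any stage. Before thinning the shares at P8 were 81.0% and 94.9%, at a median depth of 9265 UMIs. In excitatory nuclei the shares with and without Nrp2 were 58.0% and 71.2% at P8, and 70.9% and 79.5% at P4, with no overlap of the intervals at either stage. At E19 (71.7% and 73.8%) and P21 (58.1% and 67.6%) the intervals overlapped. Splitting by Nrp1 gave overlapping intervals in both classes and all libraries, for example 63.9% and 63.2% in inhibitory nuclei at E19. The intervals treat nuclei as separate draws, but the nuclei of a stage share a library and are not replicates, so these shares are descriptive. Subtypes that differ in both Nrp2 and Plxna4 were pooled here, and the part of subtype in the split was not tested. The share of nuclei with both neuropilins was 7.57% to 20.9%. The share with an A-type plexin UMI in myelinating oligodendrocytes at P21, as background, was 5.88% after thinning.

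The genes with the most similar pattern were taken as the 3 highest Pearson r of log2 levels (5 CPM added) over 68 subtype and stage profiles of 50 or more nuclei, among 8226 genes that reached 50 CPM in a profile. For Plxna4 they were Fstl5 (0.82), Sdk2 (0.76) and Gabrg3 (0.76), and for Nrp2 Robo2 (0.79), Pdzd2 (0.75) and Cep112 (0.73). Plxna3 was most like Trim67 (0.89), Rac3 (0.88) and Ly6h (0.88), and Plxna1 like Ly6h (0.85), Plppr3 (0.85) and Podxl2 (0.84). Plxna2 was most like Sdk1 (0.72), Robo1 (0.70) and Alcam (0.69), Plxnb1 like Adgrg1 (0.84), Dbi (0.84) and Hnrnpa2b1 (0.84), and Plxnb2 like Dchs1 (0.83), Ptms (0.79) and Klhl23 (0.78). Plxnc1 was most like Cxadr (0.76), Dpysl3 (0.75) and Lasp1 (0.74). With Spearman's rho, all 3 stayed in the top 3 for Plxna2, 2 did for Nrp2, Plxna1 and Plxna3, 1 did for Plxna4 and Plxnb2, and none did for Plxnb1 and Plxnc1. Plxnd1 did not reach 50 CPM in any of these profiles, which leave out the class labelled endothelial. The profiles of a stage share a library, and cell type and age both enter these values.

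By CPM, which was not scaled by gene length, the ligands in the same nuclei were led by the membrane-bound class 6 semaphorins. Sema6d averaged 681 CPM in excitatory and 702 in inhibitory neurons over the 4 libraries, Sema6a 482 and 423, and Sema5a 103 and 165. Of 20 semaphorin genes, 17 reached 20 CPM in excitatory neurons, where 5 were 2-fold lower at P21 than at E19 (13.3% of all genes) and 1, Sema7a, was 2-fold higher (6.51% of all genes). In inhibitory neurons 4 of 16 were 2-fold lower (13.6% of all genes) and none 2-fold higher (7.26%). Sema3a, the ligand of Nrp1 with Plxna4, was at 29.7 CPM at E19 and 2.88 at P21 in excitatory neurons, 10.3-fold lower. Sema4c, a ligand of B-type plexins, was 4.21-fold and 5.50-fold lower, and Sema6d was 2.83-fold lower in inhibitory neurons. Sema7a, the Plxnc1 ligand, was 2.15-fold higher in excitatory neurons (12.7 and 27.5 CPM) while Plxnc1 was 3.06-fold lower. The next largest semaphorin ratios were 1.06 for Sema3e in excitatory neurons and, in inhibitory neurons, 1.60 for Sema7a and 1.39 for Sema5a.

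Of 15 co-receptors and alternative ligands or receptors, 7 reached 20 CPM in each class, of which 2 were 2-fold lower and none was 2-fold higher, against 13.3% and 13.6% of all genes lower and 6.51% and 7.26% higher in excitatory and inhibitory neurons. Both were adhesion molecules that associate with neuropilins: L1cam was 2.98-fold and 3.58-fold lower and Chl1 2.85-fold and 3.79-fold lower in excitatory and inhibitory neurons. Nrcam, the highest of the list by CPM, averaged 487 and 539.7 CPM. The largest ratios in the list were 0.989 for Ptk7 and 0.9003 for Nrcam in excitatory neurons, and 1.08 for Vegfa and 0.772 for Itgb1 in inhibitory neurons. Of 27 intracellular effectors, 22 reached 20 CPM in each class, of which 5 were 2-fold lower and 1 2-fold higher in each, against the same shares of all genes. The higher one was Mical2, an actin-oxidising enzyme of the family that plexins engage, at 19.1 and 96.0 CPM in excitatory neurons (5.03-fold) and 7.55 and 95.5 CPM in inhibitory neurons (12.6-fold). The next largest ratio was that of Farp2, an exchange factor that binds A-type plexins, at 1.60 in excitatory and 1.49 in inhibitory neurons. Cfl1, the actin-severing cofilin, was 7.34-fold and 7.21-fold lower, and Dpysl3, a collapsin response mediator, 4.83-fold and 4.8004-fold lower. Mical3, Farp1 and Dpysl2 had the highest mean levels, at 417, 394 and 306 CPM in excitatory and 435, 366 and 301 CPM in inhibitory neurons. These orders of genes by CPM were not scaled by gene length either.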

How the data were processed

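Raw UMI counts per gene and nucleus were deposited by the authors for all 4 libraries in 1 matrix, made with Cell Ranger 3.0.2 per the submitters' processing notes and, per the series' design text, a pre-mRNA reference of mm10, so that intronic reads counted. The sources used here do not give filters on nuclei, doublet treatment, annotation release or use of strand. The class, subtype and stage of each nucleus, and the percent of mitochondrial UMIs, came from the deposited annotation, and 7 of its columns (clusters, map coordinates and reference-based labels) were not used. The labels misprint the embryonic day once, and E19 was used. UMIs were summed per library and class or subtype and divided by their total (CPM), with no doublet caller run. With 1 library per stage no test was made. Intervals are exact Poisson (levels), Clopper-Pearson (shares) or conditional binomial (ratios), at 95%, for counting error only. The ratios and calls were tested on simulated Poisson counts with no spread between nuclei or libraries, so that test also covers counting error only. A gene was counted as changed at 2-fold with 20 CPM or more in the higher stage. The members and the lists of ligands, co-receptors and effectors were chosen with earlier results of these data known. Named beside the members are the 3 genes most like each (for Nrp1 not reported here) and, of each list, the 3 highest and the 2 with the largest rise and fall from E19 to P21. Python 3.11.15, numpy 2.4.6, scipy 1.17.1, pandas 2.3.3 and matplotlib 3.10.9 were used.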

Additional observations from a re-analysis of the deposited data

Results flagged for a closer look

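Nrp2 stood on opposite sides of 1 in the neuron classes between E19 and P21. The P21 to E19 ratio of its CPM was 0.890 for the excitatory class and 1.17 for the inhibitory class. With 1 library per stage the difference between the classes was not tested, and each direction turned under an alternative given with the effects of processing.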

How the results depend on the processing

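No paired analysis was possible because each stage has 1 library and all carry replicate number 1. Of the ratios between stages, 570 values under alternatives lay within the counting interval of the reported ratio, 120 lay outside it without turning a ratio that was beyond its interval, and 10 turned one. Of the ratios between neuron classes the numbers were 311, 45 and 4. With each subtype weighted alike, the ratio from P4 to P8 in excitatory neurons was 1.09 for Plxna4, 0.997 for Nrp1 and 0.892 for Nrp2, and in inhibitory neurons 1.06 for Plxna4. The P21 to E19 ratio of Plxna4 was then 1.04 in excitatory and 1.03 in inhibitory neurons, that of Nrp2 in inhibitory neurons 0.729, and the Nrp1 ratio of excitatory over inhibitory neurons at P4 1.07. With nuclei thinned to 2300 UMIs, the P21 to E19 ratio of Nrp2 in excitatory neurons was 1.04, the ratio of excitatory over inhibitory neurons at P4 was 1.03 for Plxna2 and 1.06 for Nrp1, and, by point values alone, 1 member (Nrp2) in place of 2 (Nrp2 and Plxnb1, the latter beyond its interval only at E19 and P8) was higher in inhibitory neurons in all 4 libraries. Without nuclei holding UMIs of both transmitter types (30.7% of excitatory and 18.4% of inhibitory nuclei), the P8 to P21 ratio of Plxna2 in excitatory neurons was 1.012. Without EN7 the Nrp1 ratio of excitatory over inhibitory neurons at P4 was 1.14. For P4 to P21, without the E19 library, an alternative chosen after seeing the data, the Nrp2 ratio in inhibitory neurons was 0.879, and 4 of 8 members were 2-fold lower in excitatory (9.07% of all genes) and 5 of 9 in inhibitory neurons (9.31%). With 20 CPM added, the count of members lower from E19 to P21 was 2 in place of 6 in excitatory and 2 in place of 5 in inhibitory neurons (5.41% and 5.92% of all genes), and the P8 to P21 count was 0 in place of 2 in inhibitory neurons (1.21%). At 1.5-fold, the P8 to P21 counts were 6 in excitatory and 4 in inhibitory neurons (11.8% and 11.9% of all genes), and the E19 to P21 count in inhibitory neurons was 8 (23.6%). At a minimum of 50 CPM, the P8 to P21 count in inhibitory neurons was 1 (3.47%). The causes of these moves were not tested.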
